A study of Mus musculus with 36 samples.

Results

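The comparison described here is between secondary mouse embryonic fibroblasts (MEFs) titled 2ndMEF-KOS-ZERT2 that were kept for 3 days with doxycycline and tamoxifen (Dox+Tmx+) and the same cells kept for 3 days with doxycycline alone (Dox+Tmx-). It rests on 4 arrays, 2 per group, chosen by their titles from the 36 of the study, and it was made at all probes of the array that are not controls. Of 42006 such probes, 33099 were bright enough to be tested. Both groups came from cells that the labels call clone #1, on a hybrid background from C57Bl/6 x 129, plated in ES cell medium with LIF, with doxycycline at 1.5 µg/ml in both and tamoxifen at 200 nM in the Dox+Tmx+ group only. Both therefore carry the KOS and the ZERT2 transgenes, both had KOS induced, and tamoxifen is the difference between them. The matched day 3 cultures without doxycycline (2 with and 2 without tamoxifen) were used beside them. So were the doxycycline cultures of days 1 and 6, iPS cells of the same transgenes (clone #2) and ES cells of line v6.5. Wild MEFs without tamoxifen and MEFs labelled Zscan4ERT2 with and without it were also used, their background given as F1 hybrid from V6.5. Each group had 2 arrays. Neither promoters nor insertion sites are named in the labels.

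KOS is the usual short form for Klf4, Oct4 and Sox2, transcription factors that together can turn fibroblasts into induced pluripotent stem (iPS) cells, and doxycycline switches on transgenes that are placed under a responsive promoter. Zscan4 is a family of zinc finger proteins known from the mouse embryo at the stage of zygotic genome activation and from rare ES cells that pass through a state like it for a short time. In a fusion with ERT2, a changed hormone-binding part of the oestrogen receptor, a protein is held inactive until a tamoxifen compound binds, so that tamoxifen acts as the switch for Zscan4 here. Secondary MEFs are made from embryos that already carry the factors, so that all cells start from the same transgenes. The series title puts the question as the part Zscan4 plays in making iPS cells.

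Each array compared a sample, labelled with Cy3, with 1 common reference, labelled with Cy5, made from mouse cell line RNA mixed with ES cell RNA. A level is given below as the log2 ratio of sample to reference, and a change as the difference of such levels with and without tamoxifen, where 1 on the log2 scale is a 2-fold change. All 4 arrays lay on 1 slide, the Dox+Tmx- samples in positions 1 and 2 and the Dox+Tmx+ samples in positions 3 and 4, so position and tamoxifen cannot be told apart. The slide of the day 3 cultures without doxycycline had the same layout. The scanner software marked 74.5% and 72.6% of probes as well above background in the Dox+Tmx- samples, and 62.9% and 77.1% in the Dox+Tmx+ samples. Replicates correlated at 0.9934 and 0.9949 over the tested probes. Nothing in the labels tells whether replicates were grown separately. The p-values therefore measure only the spread between replicate arrays, pooled over all 18 groups of the study, which may be technical. Probes are given by identifier, because the sources used here pair none of them with a gene. The transgenes and the markers of fibroblasts, stem cells and other cell types were therefore not checked by name, and the ES and MEF arrays of the study stand in for such markers.

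With tamoxifen added to doxycycline more probes rose than fell, and most of them by less than 1.5-fold. Limma's adjusted p was under 0.05 for 2430 probes: 1721 rose (5.2% of those tested) and 709 fell (2.14%), together 7.34% of 33099. The median rise was 0.33 on the log2 scale (1.26-fold) and the largest 1.39 (2.61-fold). The median fall was 0.28 in size (1.22-fold) and the largest 0.84 (1.79-fold). A rise of at least 2-fold was called for 32 probes (0.0967%) and no probe fell by that much. At 1.5-fold or more there were 221 rising (0.668%) and 15 falling probes (0.0453%). The median change over all probes tested was 0.004. The plot of change against adjusted p shows the longer arm on the rising side.

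**Figure D1:**
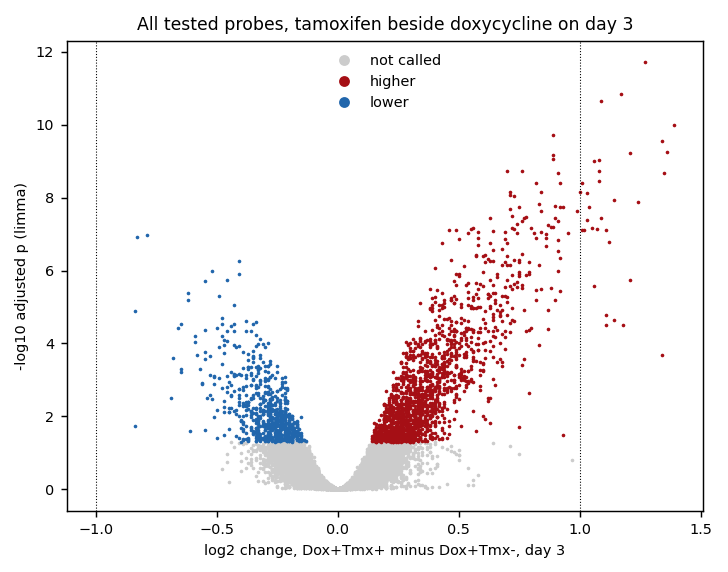
Each point is 1 of 33099 probes, placed by its log2 change with tamoxifen beside doxycycline on day 3 (x axis) and by -log10 of limma's adjusted p (y axis); red points were called higher, blue points lower and grey points were not called, and dotted lines mark 2-fold. Red points reach 1.39 and blue points end at -0.84.

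The groups did not overlap at 1720 of the 1721 rising and at all 709 falling probes, against 9563 probes higher and 8444 lower without overlap over all those tested. The count of 2430 was 1006 with outlying local backgrounds kept and 1552 with the scanner software's own ratios. It was 3786 when the 8 arrays of day 3 were fitted alone. Keeping outlying backgrounds is known to fail on 2 arrays outside the 4 compared, which still enter the shared estimate of the spread. At 20 called probes the gap between the replicates of a group was larger than the change itself. Without replicate 1 or 2 of the Dox+Tmx- group the count of calls was 1288 or 1487, and without replicate 1 or 2 of the Dox+Tmx+ group 1285 or 1348, with the single array left then assumed to vary like the other groups. Of the called probes, 2375 were well above background on all 4 arrays, while 11 rising probes were not so on either Dox+Tmx- array and 5 falling probes on neither Dox+Tmx+ array. The share of rising among all calls was 70.8% and became 60.4% with the scanner software's own ratios and 54.8% with the deposited series matrix.

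Probe Z00029389-1 had the largest rise. Its log2 ratios were 0.32 and 0.25 with doxycycline alone and 1.63 and 1.7 with both drugs, a change of 1.39 (SE 0.0806, adjusted p = 9.98e-11 in limma). Both arrays with tamoxifen thus stood well clear of both without. Without doxycycline the levels were -1.35 and -1.33 without and -1.4 and -1.36 with tamoxifen, a difference of -0.04 (adjusted p = 1). ES cells had 0.76 and 0.72, iPS cells 0.03 and 0.13, and the wild MEF arrays showed no signal well above background. The cultures with doxycycline alone therefore lay between fibroblasts and ES cells at this probe, and those with both drugs above both ES arrays.

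The second largest rise was at Z00024320-1, which, unlike the first, did not stand out in ES cells. Its sequence follows, 5′ to 3′, as that of the largest rise at such a probe.
Z00024320-1: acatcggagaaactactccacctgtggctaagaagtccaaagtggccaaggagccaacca
Its log2 ratios were 1.73 and 1.7 with doxycycline alone and 3.13 and 3.03 with both drugs, a change of 1.36 (SE 0.0882, adjusted p = 5.73e-10 in limma). The ES arrays read 0.09 and 0.22, and on the wild MEF arrays and the 4 arrays without doxycycline the probe was not well above background. With the scanner software's own ratios the change was 0.74 and no longer called (adjusted p = 0.207).

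The next 3 in size also lead a difference between tamoxifen effects, given further on. Z00020905-1 went from 1.44 and 1.29 to 2.76 and 2.68 (change 1.35, SE 0.0973, adjusted p = 2.05e-09 in limma). Z00038074-1 went from -1.22 and -1.35 to 0.08 and 0.04 (change 1.34, SE 0.219, adjusted p = 0.000211), with ES arrays at 1.86 and 1.93. It therefore moved towards the ES level and stayed below it. Z00007317-1 went from -0.01 and -0.05 to 1.38 and 1.25 (change 1.34, SE 0.0835, adjusted p = 2.77e-10), with ES arrays at 0.95 and 1.06, so that it passed the ES level. None of the 3 had overlapping groups.

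**Figure D2:**
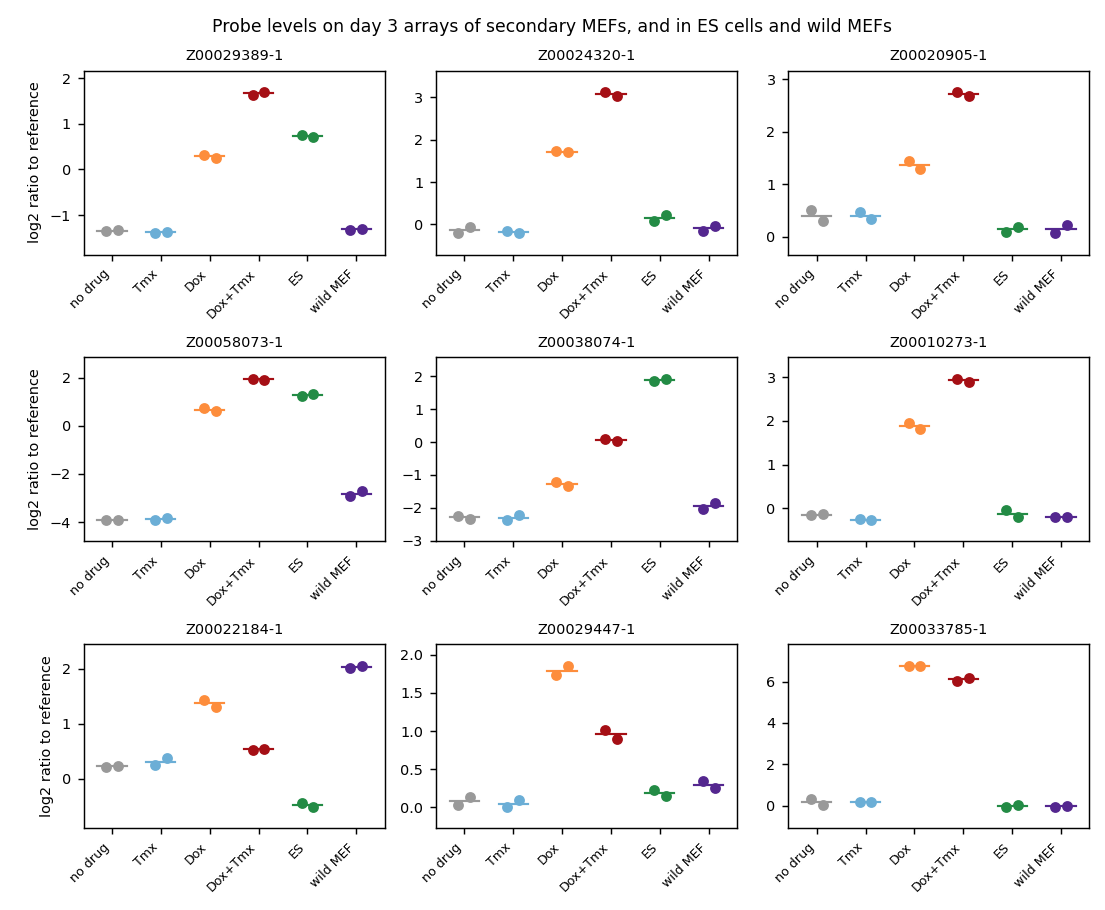
Log2 ratio of sample to reference (y axis) for 9 probes, 1 per panel; each point is 1 array, each bar the mean of 2 arrays, and the groups are the day 3 secondary MEFs without drug, with tamoxifen, with doxycycline and with both, the ES cells and the wild MEFs. In the first 6 panels the arrays with both drugs stand above those with doxycycline alone, and in the last 3 below them, while the arrays with and without tamoxifen lie together where doxycycline was absent.

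All 32 probes that rose at least 2-fold had an adjusted p of 0.000211 or lower and an SE between 0.0576 and 0.219, and 31 of them were well above background on all 4 arrays. Of the 32, 14 were ES-high, that is with an ES level at least 4 times that of wild MEFs and called so, none was MEF-high, the reverse, and 18 were in neither class. In 24 of them both Dox+Tmx+ arrays were above all ES and all wild MEF arrays. Some of these 24 already were with doxycycline alone. Z00010273-1 (chosen after its values were seen) shows this: it read 1.96 and 1.82 with doxycycline alone and 2.97 and 2.89 with both drugs, and was not well above background in ES, iPS or wild MEF arrays. Its change was 1.04 (SE 0.0859, adjusted p = 1.85e-08 in limma). Z00050172-1 (also chosen afterwards) was higher in wild MEFs than in ES cells (ES minus MEF -1.61) and still rose, from 2.24 and 2.23 to 3.34 and 3.25 (change 1.06, adjusted p = 1.02e-09 in limma). Over all rising probes, both Dox+Tmx+ arrays were above all ES and wild MEF arrays at 830 of 1721, against 8676 of the 33099 tested. With doxycycline alone the counts were 651 and 8425.

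The direction of the change followed how a probe differs between ES cells and fibroblasts. ES-high and MEF-high probes made up 3.63% and 7.57% of all. The ES and wild MEF arrays that define them lie on other slides and enter neither mean of the tamoxifen comparison. They share its estimate of the spread per probe and its reference, which holds ES cell RNA. ES and wild MEF arrays were on different slides and scan days, so these cannot be told apart from cell type. Of 1201 ES-high probes, 352 rose (29.3%, against 5.2% of all probes) and 14 fell, with a median change of 0.14. Of 2507 MEF-high probes, 299 fell (11.9%, against 2.14% of all) and 65 rose, with a median of -0.078. Of the 29391 others, 1304 rose (4.44%) and 396 fell (1.35%), with a median of 0.005. ES-high probes thus made up 20.5% of the rising probes, and MEF-high probes 42.2% of the falling ones. In RNA of a whole culture, more cells in a state and more RNA per cell cannot be told apart. The count of falling MEF-high probes was 101 without Dox+Tmx- replicate 1, 182 without replicate 2, 126 without Dox+Tmx+ replicate 1, 135 without replicate 2, and 173 with scale normalization between arrays. It was 126 with outlying local backgrounds kept and 548 when the 8 arrays of day 3 were fitted alone. The count of rising ES-high probes was 60 with outlying local backgrounds kept, 218 with the scanner software's ratios and 225 with the series matrix, where only 20183 probes were tested. The first of these settings fails on 2 arrays outside the 4 compared.

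The share that moved was larger in bins of larger ES to MEF difference, up to the bin from 4 to 6. Among probes between 0 and 1 on the log2 scale for ES minus MEF, 4.79% rose. The share was 12.1% between 1 and 2, 25.6% between 2 and 4, 47.6% between 4 and 6 and 34.3% of the 35 probes above 6. On the other side the share that fell went from 1.31% between -1 and 0 to 4.21%, 9.17%, 20.1% and, in the 102 probes below -6, 27.5%. The median change ran from -0.159 in the lowest bin to 0.27 between 4 and 6.

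**Figure D3:**
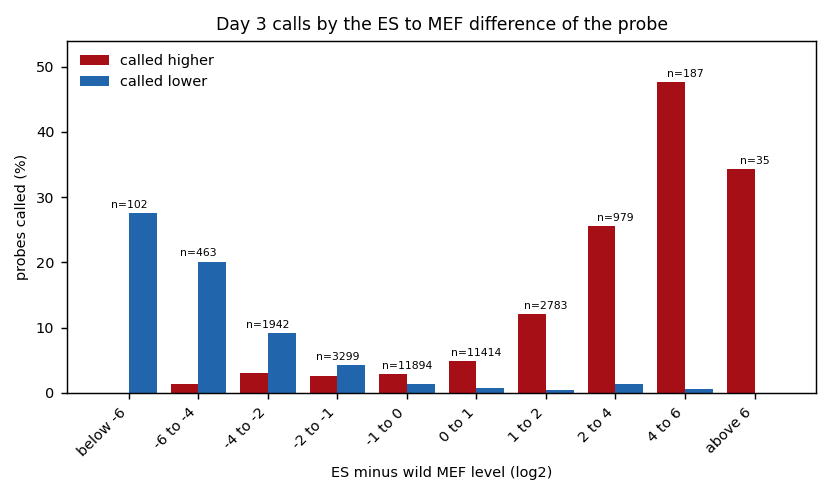
Percent of probes called higher (red) and lower (blue) with tamoxifen beside doxycycline on day 3 (y axis), in bins of the log2 level in ES cells minus wild MEFs (x axis); n is the number of probes per bin. Blue bars are tallest at the left, 27.5%, and red bars towards the right, 47.6% between 4 and 6.

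Most ES-high probes that rose covered a small part of the distance to ES cells. Of the 352, 313 lay below both ES arrays with doxycycline alone. In these the median share of the gap closed by adding tamoxifen was 18.6%. Over all 352 the median distance to the ES mean went from 2.11 to 1.7, and the median rise was 0.41. With both drugs 296 were below both ES arrays and 55 above both, while 34 were above both with doxycycline alone. Z00022413-1 (chosen after its values were seen) stands for the first kind: it rose from -4.4 and -4.35 to -3.3 and -3.27 (change 1.09, adjusted p = 3.54e-08 in limma), with ES arrays at 1.17 and 1.26. Z00066926-1 rose from -2.32 and -2.48 to -1.14 and -1.19 (change 1.24, adjusted p = 1.33e-08), with ES arrays at 0.9 and 0.88. With outlying local backgrounds kept, these 2 changes were 1.09 and 1.23 and not called (adjusted p = 0.318 and 0.0628). Z00058073-1 stands for the second kind, at 0.72 and 0.61 with doxycycline alone, 1.95 and 1.91 with both drugs and 1.24 and 1.3 in ES cells (change 1.27, SE 0.0576, adjusted p = 1.91e-12). It had the smallest adjusted p of the 32 strongest rises.

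MEF-high probes that fell mostly stayed above the ES level. Of the 299 MEF-high probes that fell, 295 were above both ES arrays with doxycycline alone and 288 still were with both drugs. The median fall was 0.28 in size (-0.28), and the median share of the measured distance to ES cells covered was 10.8%, with 14 of the 299 not well above background on either ES array. With doxycycline alone 241 of the 299 lay below both wild MEF arrays, whose background is labelled in other words, and 49 above both. Z00036649-1 (chosen after its values were seen) read 2.22 and 2.21 in cultures without drugs and 0.75 and 0.83 in wild MEFs, and -0.29 and -0.4 with doxycycline. With both drugs it was -0.94 and -1.01 (change -0.62, SE 0.0772, adjusted p = 6.36e-06 in limma), and ES cells had -5.37 and -5.34.

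The 2 largest falls by size were of different kinds. Z00022184-1 is a MEF-high probe, at 2.01 and 2.06 in wild MEFs, and at 0.22 and 0.23 in the day 3 cultures without drugs. With doxycycline alone, on another slide, it was 1.44 and 1.31. With both drugs it was 0.53 and 0.54 (change -0.84, SE 0.11, adjusted p = 1.33e-05 in limma), nearer the cultures without drugs. With outlying local backgrounds kept the value was the same, -0.84, but was not called (adjusted p = 0.15). Z00029451-1 was 1.28 in Dox+Tmx- replicate 1 but -0.17 in replicate 2, and -0.31 and -0.24 with both drugs, so its change of -0.84 (SE 0.22, adjusted p = 0.0184) rested on 1 array. Without Dox+Tmx- replicate 1 it was -0.11 (adjusted p = 0.573). In the same way the rise of Z00064742-1 rested on Dox+Tmx+ replicate 1, which read -0.88 against -2.54 in replicate 2 and -2.65 and -2.63 without tamoxifen; without that array the change was 0.1 (adjusted p = 0.872). The fall of Z00068309-1 rested on the same array, at -0.7 against 0.24, and was -0.08 without it (adjusted p = 0.772). These last 2 were chosen for that reason after their values were seen.

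Between day 3 cultures with and without doxycycline, none with tamoxifen, 58% of probes differed (31% higher and 27% lower with doxycycline). The arrays with doxycycline lay on a different slide from those without it. How much of the 58% was owed to the drug rather than to the slides was not tested. This comparison also shares the Dox+Tmx- arrays with that of tamoxifen, so both are given only probe by probe. Z00029447-1 read 1.73 and 1.86 with doxycycline and 1.02 and 0.9 with both drugs (change -0.83, SE 0.079, adjusted p = 1.19e-07 in limma), and was not well above background without doxycycline or in ES and wild MEF arrays. Its change was -0.46 (adjusted p = 0.881) with the scanner software's ratios. Z00033785-1 (chosen after its values were seen) read 6.77 and 6.74 with doxycycline against 0.34 and 0.05 in cultures without drugs. With both drugs it was 6.04 and 6.17 (change -0.65, SE 0.0903, adjusted p = 2.91e-05), and with the scanner software's ratios -0.39 (adjusted p = 0.423). Z00074647-1, also chosen afterwards, fell from a level that was lower with doxycycline than without. It read 1.03 and 1.17 without drugs, 0.31 and 0.21 with doxycycline, and -0.52 and -0.54 with both. Its change was -0.79 (SE 0.0744, adjusted p = 1.03e-07 in limma).

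Probes that share part of their sequence were compared on the same arrays. Among tested probes, 1018 pairs shared a run of at least 25 bases, and in 145 pairs at least 1 member was called. Runs held by many probes were not used, and some probes are in several pairs. Both were called in 98 pairs, 79 of them both rising and 19 both falling, and none in opposite directions. The median gap between the 2 changes of such a pair was 0.04 and the largest 0.37. Where 1 member was called, the other had the same sign in 46 of 47 pairs. Probes of a pair can bind the same or related transcripts and are not replicates of the condition. Their like direction is therefore no test of the tamoxifen effect. The sequences of 3 such pairs are shown, 5′ to 3′ with the shared run in capitals, since they lie among the strongest changes on each side.
Z00030600-1: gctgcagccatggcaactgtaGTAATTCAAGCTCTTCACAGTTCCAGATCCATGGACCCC
Z00075557-1: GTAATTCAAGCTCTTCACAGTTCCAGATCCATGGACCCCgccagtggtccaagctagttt
Z00010273-1: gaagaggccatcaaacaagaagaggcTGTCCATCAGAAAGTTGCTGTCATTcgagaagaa
Z00057680-1: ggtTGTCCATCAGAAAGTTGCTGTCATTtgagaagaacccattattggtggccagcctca
Z00023830-1: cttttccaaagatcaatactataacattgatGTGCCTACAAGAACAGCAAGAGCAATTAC
Z00055704-1: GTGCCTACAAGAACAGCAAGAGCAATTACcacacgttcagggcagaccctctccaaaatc
The first pair shares 39 bases and is ES-high. Z00030600-1 went from 0.21 and 0.26 to 1.38 and 1.26 and Z00075557-1 from 0.3 and 0.22 to 1.4 and 1.35, changes of 1.09 and 1.11 (adjusted p = 2.26e-11 and 7.77e-08 in limma). The second pair shares 25 bases, and Z00057680-1 changed by 0.95 (adjusted p = 9.39e-08 in limma) beside the 1.04 of Z00010273-1. The third pair shares 29 bases and is MEF-high. Z00023830-1 went from 2.55 and 2.42 to 1.92 and 1.74 (change -0.65, adjusted p = 0.000622) and Z00055704-1 from 3.12 and 3.02 to 2.38 and 2.39 (change -0.69, adjusted p = 0.00318). Neither member of the falling pair was called with outlying local backgrounds kept (adjusted p = 0.582 and 0.56) or with the scanner software's ratios (adjusted p = 0.42 and 0.171). In the first pair Z00030600-1 also lost its call with the scanner software's ratios (change 1.23, adjusted p = 0.112 in limma), and Z00075557-1 did not.

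**Figure D4:**
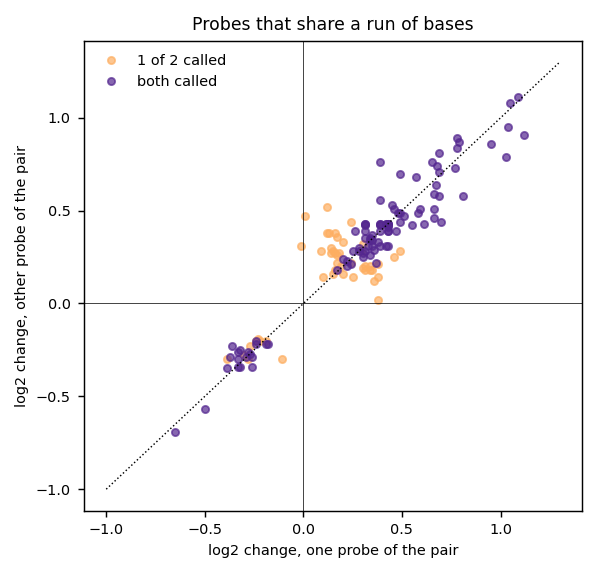
Log2 change with tamoxifen beside doxycycline on day 3 for the 2 probes of each of 145 pairs that share at least 25 bases and have at least 1 called member (x and y axis: 1 probe each); purple points have both members called, orange points 1, and the dotted line marks equal changes. The 98 purple points lie in the 2 quadrants of like sign, along the line.

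The files give no genome positions, and only probes that lie wholly inside a RefSeq promoter window (250 bases before to 50 after a gene's start, build GRCm38.p6) could be placed. Of the tested probes 219 did so, with matches on 1 chromosome left out. Of these 219, 5 rose (2.28%, against 5.2% of all probes) and 1 fell (0.457%, against 2.14%). The largest change among them was at Z00060294-1, on the strand of the gene, at chr12:87795362-87795421, ending 79 bases before the annotated start of Gm21936, a protein-coding gene of the RefSeq annotation, so upstream of its first exon. Its sequence is shown as the one strongly changed probe among the 219.
Z00060294-1: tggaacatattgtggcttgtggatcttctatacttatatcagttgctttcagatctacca
It read -2.39 and -2.67 with doxycycline alone and -1.76 and -1.8 with both drugs (change 0.75, SE 0.0826, adjusted p = 1.24e-06 in limma). With outlying local backgrounds kept the change was 0.74 and not called (adjusted p = 0.419). The other placed probes that changed did so by 0.34 near Gm46074 (same strand) and by 0.36 near AI507597, 0.23 near Appbp2, 0.23 near Gm41094 and -0.24 near Gm15612, all of these on the opposite strand. Another probe near AI507597, Z00027795-1, had a change of 0.17 and was not called. The same sequence elsewhere in the genome was not searched for.

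Without doxycycline, no probe passed the test for tamoxifen on day 3. Limma called 0 of 33099 probes, 0% of those tested, with 822 (2.48%) at an unadjusted p under 0.05, where beside doxycycline 5863 (17.7%) were. The count was 2 with the scanner software's ratios and 6 with the series matrix, where only 20183 probes were tested. It was 2 or 18 without replicate 1 or 2 of the cultures without drugs, and 1 or 4 without replicate 1 or 2 of those with tamoxifen. At the 32 probes with the strongest rises beside doxycycline, the values without it lay between -0.16 and 0.14. In 14 other probes the value without doxycycline was 1 or more although none was called, up to 2.11 at Z00025873-1, and in 12 of them replicate 2 of the cultures without drugs was lower than the other 3 arrays by more than 1. None of the 14 was called higher beside doxycycline on day 1, 3 or 6.

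The difference between the 2 tamoxifen effects was itself called at 789 probes (2.38%), 648 where the effect was more positive beside doxycycline (1.96%) and 141 where it was more negative (0.426%). Among ES-high probes 206 of 1201 were more positive and 9 more negative, and among MEF-high probes 60 of 2507 were more negative and 25 more positive. The largest differences were 1.43 at Z00029389-1 (SE 0.114, adjusted p = 7.36e-08 in limma), 1.4 at Z00024320-1 and 1.37 at Z00038074-1, and on the other side -0.93 at Z00022184-1, -0.9 at Z00034359-1 and -0.8 at Z00029447-1. The values of Z00034359-1 were 2.04 and 2.06 with doxycycline and 1.45 and 1.43 with both drugs, but 1.26 and 1.13 against 1.66 and 1.31 without doxycycline. Its call (adjusted p = 0.0444) was lost without 7 of the 8 arrays of day 3, each left out in turn, and kept without Dox-Tmx+ replicate 2. That of Z00038074-1 (adjusted p = 0.0146) was lost without Dox-Tmx- replicate 1 (adjusted p = 0.0653), Dox-Tmx+ replicate 1 (0.0762), Dox+Tmx- replicate 2 (0.0686) or Dox+Tmx+ replicate 1 (0.0597). With the scanner software's ratios the difference was 0.94 at Z00024320-1 (adjusted p = 0.497) and -0.39 at Z00029447-1 (0.997), and at Z00022184-1 it was -0.92 with outlying local backgrounds kept (0.651), none of them called. The count of 789 was 164 with outlying local backgrounds kept, 290 with the scanner software's ratios, and between 454 and 511 without any 1 of the 8 arrays.

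Most probes that changed on day 3 were not called on day 1, and most of the rising ones were called on day 6. Beside doxycycline 91 probes rose (0.275%) and 34 fell (0.103%) with tamoxifen on day 1 (0.378% in all). On day 6, 2254 rose (6.81%) and 803 fell (2.43%, 9.24% in all). Of the 1721 probes that rose on day 3, 67 also rose on day 1 (3.89% of them and 73.6% of the day 1 list) and 1047 on day 6 (60.8% and 46.5%), with 1 and 0 called in the opposite direction. Of the 709 that fell, 24 also fell on day 1 (3.39% and 70.6%) and 288 on day 6 (40.6% and 35.9%), with 0 and 3 called the other way. The days share no arrays but do share 1 estimate of the spread per probe. The median change of the rising probes was 0.06 on day 1 and 0.27 on day 6, and that of the falling probes -0.07 and -0.17, against -0.001 and 0.006 over all probes. Across probes the changes of day 3 correlated at 0.637 with those of day 6, at 0.324 with those of day 1 and at 0.0941 with those without doxycycline on day 3, a description over 33099 probes, which are not independent.

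**Figure D5:**
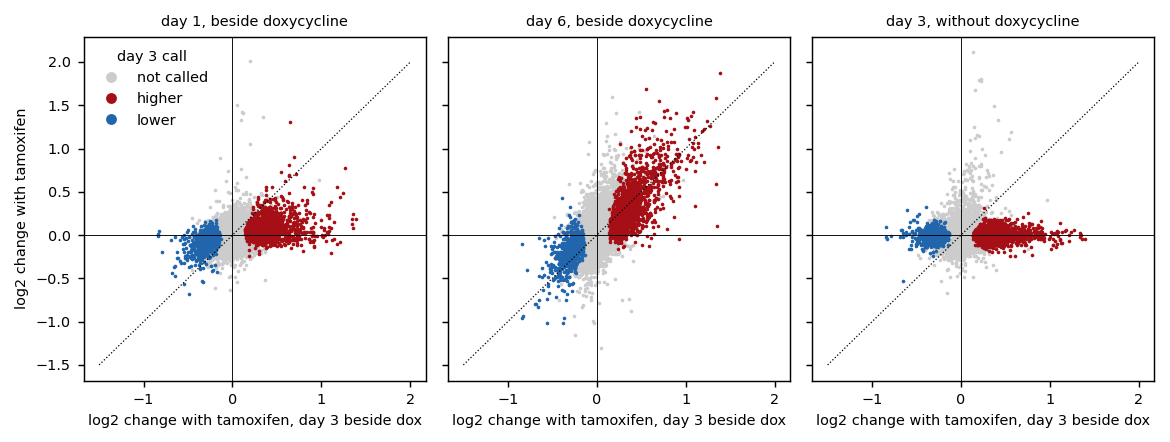
Log2 change with tamoxifen on day 1 beside doxycycline, day 6 beside doxycycline, and day 3 without doxycycline (y axis, 1 panel each) against the change on day 3 beside doxycycline (x axis); each point is 1 probe, coloured by its day 3 call, and the dotted line marks equal changes. Red and blue points lie near the line on day 6, close to 0 on day 1, and in a flat band without doxycycline, where the grey points that reach up to 2.11 were not called.

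Of the 32 strongest rises, 30 also rose on day 6 and 4 on day 1. Over all 32, called or not, the change ran from 0.1 to 1.87 on day 6 and from -0.21 to 0.77 on day 1. Z00058073-1 was one of the early ones, at 0.77 on day 1 (adjusted p = 4.41e-08 in limma) and 1.26 on day 6. Z00023304-1 (chosen after its values were seen) had the opposite course: its change was 1.31 on day 1, 0.65 on day 3 (adjusted p = 6.49e-06) and 0.3 on day 6, and the step from day 1 to day 3 was -0.66 (SE 0.113, adjusted p = 0.00156). On day 3 it read 2.25 and 2.12 without and 2.86 and 2.81 with tamoxifen, and 1.94 and 1.99 against 3.32 and 3.23 on day 1. With the scanner software's ratios the day 3 change was 0.84 and not called (adjusted p = 0.265), likewise with the series matrix (0.84, adjusted p = 0.0778).

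The change was more positive on day 3 than on day 1 at 333 probes (1.01%) and more negative at 41 (0.124%, 1.13% in all). It was largest at Z00031338-1, by 1.32 (SE 0.218, adjusted p = 0.00113 in limma), which went from -2.39 and -2.82 to -1.49 and -1.5 on day 3 and from -3.11 and -3.29 to -3.5 and -3.32 on day 1. Z00024320-1 and Z00034921-1 followed, each by 1.29. The largest in the other direction were Z00029447-1 by -0.88, Z00022184-1 by -0.85 and Z00049267-1 by -0.67. The last of these read -0.39 and -0.41 without drugs and 5.59 and 5.62 with doxycycline on day 3. Tamoxifen changed it by 0.76 on day 1 and, uncalled, 0.1 on day 3. With the scanner software's ratios the difference was 0.2 at Z00024320-1 (adjusted p = 1), 0.01 at Z00029447-1 and -0.97 at Z00049267-1 (0.642). With outlying local backgrounds kept it was 1.31 at Z00031338-1 (0.345), 1.26 at Z00034921-1 (0.985) and -0.84 at Z00022184-1 (1), so that each of the 6 lost its call under 1 of these settings. Among the 333 were 100 of the 1201 ES-high probes (8.33%, against 1.01% of all probes). The count of 374 was 85 with outlying local backgrounds kept, 113 with the scanner software's ratios, 201 without Dox+Tmx+ replicate 1 of day 1, 231 without Dox+Tmx- replicate 1 of day 1, 225 without Dox+Tmx- replicate 1 of day 3 and 228 without Dox+Tmx+ replicate 1 of day 3.

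Between days 3 and 6 the change became more positive at 131 probes (0.396%) and more negative at 29 (0.0876%, 0.483% in all). It was most negative at Z00020905-1, whose day 6 levels were 0.36 and 0.37 without and 0.58 and 0.35 with tamoxifen, a change of 0.1 (adjusted p = 0.65) after 0.24 on day 1 and 1.35 on day 3, so that day 6 minus day 3 was -1.25 (SE 0.138, adjusted p = 1.83e-05 in limma). Its level with doxycycline alone was 1.44 and 1.29 on day 3. That difference was -0.8 with the scanner software's ratios and with the series matrix, and not called (adjusted p = 0.894 and 0.573). Z00007317-1 (-0.76) and Z00036206-1 (-0.9) followed, and lost their calls with outlying local backgrounds kept (-0.75, adjusted p = 0.341, and -0.9, adjusted p = 0.347). The largest increases were Z00051631-1 (1.41), Z00031262-1 (1.2) and Z00022466-1 (1.19), none of them called on day 3. With the scanner software's ratios Z00031262-1 read 2.3 (adjusted p = 0.072) and Z00022466-1 -0.19, and the latter was not well above background on either Dox+Tmx- array of day 3. Under other settings Z00022466-1 was called on day 3, at 1.35 with the series matrix (adjusted p = 0.00522 in limma) and 0.34 without background subtraction (0.0108). With the series matrix its day 6 minus day 3 was 0.4 and not called (adjusted p = 0.92). Z00051631-1 read 1.88 and 1.7 without and 1.95 and 1.97 with tamoxifen on day 3. On day 6 it stood at 2.39 and 2.25 without and 3.88 and 3.93 with it. The count of 160 was 32 with outlying local backgrounds kept, 53 with the scanner software's ratios, 80 without Dox+Tmx- replicate 1 of day 3, 92 without Dox+Tmx+ replicate 1 and 98 without its replicate 2.

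In MEFs labelled Zscan4ERT2, which name no KOS transgene, 537 probes rose (1.62%) and 472 fell (1.43%, 3.05% in all) with tamoxifen. The treated and untreated arrays lay on 2 slides of different scan days, so slide and tamoxifen cannot be told apart there. Of the probes that rose on day 3 beside doxycycline, 87 rose there (5.06% of them and 16.2% of that list) and 14 fell, and of those that fell, 91 fell (12.8% and 19.3%) and 20 rose. The median change there was 0.03 for the day 3 rises and -0.04 for the falls. Z00022184-1, the largest fall, went the other way there, by 0.69 (SE 0.11, adjusted p = 0.000515 in limma).

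Base composition moved with the calls. In 5 bins of probes from low to high G and C content, 5.67%, 6.14%, 5.81%, 4.66% and, in the highest bin (55% G and C or more), 3.19% rose, and 2.25%, 2.58%, 2.82%, 1.66% and 1.24% fell. The median content was 43.3% in rising and in falling probes and 45% in probes not called. Its part in the result was not tested.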

How the data were processed

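The deposited files used were 36 scanner files, 1 per 2-colour array, and 1 series matrix. The scanner software was Feature Extraction 9.5.1.1 from Agilent, per the file headers. The deposited intensity values (spot mean and local background median of both channels) are not normalized. The log10 ratio in the same files was made by that software's own background and dye correction, per the file headers, and is red over green, so its sign was turned for use as an alternative. The deposited series matrix holds log10 values for 25030 spots. Its columns have medians from 2.37 to 2.46 and correlate at 0.977 to 0.994 with log10 of the background-subtracted sample channel, so they were read as sample brightness. How they were centred and scaled stays unknown.

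Local backgrounds that the software marked as outliers were replaced by the array's median. Then limma's normexp with an offset of 50 and loess within each array followed (control and non-uniform spots at weight 0). A probe's spots were averaged. Keeping the outlying backgrounds (plain normexp) is known from earlier work on these files to fail on 2 arrays. These are replicate 1 of the wild MEFs titled Tmx+ and replicate 1 of the day 6 cultures without drugs. Neither enters the day 3 means, but both enter the shared estimate of the spread. A probe was kept where Cy3 was well above background on all arrays of some group (33099 kept, 8907 removed). Limma 3.58.1 in R 4.3.3 (lmFit on all 36 arrays, 18 group means, eBayes with 18 residual and 5.05 prior degrees of freedom, Benjamini-Hochberg within each contrast, adjusted p under 0.05) gave all tests, and the script was tested on simulated data. For probes dim in a whole group no lower bound of the fold was computed, and their changes are measured values. The precision is limited by the number of arrays, which came from 11 slides.

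The file's gene name column repeats the probe identifier, so the gene lists, cell type markers and gene names planned could not be used. In their place the text names the 2 largest rises and falls without overlap and up to 3 largest differences between effects in each direction. Other probes were chosen after their values were seen. Members, lists and classes were chosen with earlier results of these data known. Replicate numbers were not used to pair the samples. Same-numbered deviations correlated at -0.264 with and -0.0274 without doxycycline, which does not exclude a pairing across numbers. Probe sequences are those of the scanner files, and promoter windows are RefSeq's (GRCm38.p6). The alternatives tried are given in the closing section.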

Additional observations from a re-analysis of the deposited data

Results flagged for a closer look

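Differences between effects of tamoxifen were tested as such in limma, and those called are given here with no explanation. The effect on day 3 differed with and without doxycycline at 789 probes, led by Z00029389-1 (1.43), Z00024320-1 (1.4) and Z00038074-1 (1.37) on the positive side and Z00022184-1 (-0.93), Z00034359-1 (-0.9) and Z00029447-1 (-0.8) on the negative side. The effect beside doxycycline differed between day 3 and day 1 at 374 probes, led by Z00031338-1 (1.32), Z00024320-1 (1.29) and Z00034921-1 (1.29), and by Z00029447-1 (-0.88), Z00022184-1 (-0.85) and Z00049267-1 (-0.67). Between day 6 and day 3 it differed at 160 probes, led by Z00051631-1 (1.41), Z00031262-1 (1.2) and Z00022466-1 (1.19), and by Z00020905-1 (-1.25), Z00036206-1 (-0.9) and Z00007317-1 (-0.76). Groups of 2 arrays are too small for the test of a sample that stands apart.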

How the results depend on the processing

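For tamoxifen beside doxycycline on day 3, 2430 probes were called. Keeping outlying local backgrounds (plain normexp) gave 1006, the scanner software's ratios 1552 and the 8 arrays of day 3 alone 3786. With the series matrix only 20183 probes could be tested, so its counts are not like for like. Leaving out 1 array gave 1285 to 1487. With those settings and with the 4 arrays compared, no background subtraction, no filter, only secondary MEF arrays, scale normalization, the series matrix and, added after seeing the data, only probes above background on all 4 arrays or without the 2 arrays on which plain normexp fails, rising calls stayed more frequent than falling ones. The rising ES-high probes (352) were 60 with outlying backgrounds kept, 218 with the scanner software's ratios, 225 with the series matrix and 251 to 267 without 1 array. The falling MEF-high probes (299) were 126, 173 with scale normalization, 548 with the 8 arrays of day 3 alone and 101 to 182 without 1 array. Without doxycycline the count of 0 was 2 with the scanner software's ratios, 6 with the series matrix and 1 to 18 without 1 array. The difference with and without doxycycline (789) was 164 with outlying backgrounds kept, 290 with the scanner software's ratios and 454 to 511 without 1 array. Day 3 minus day 1 (374) was 85, 113 and 201 to 274, and day 6 minus day 3 (160) was 32, 53 and 80 to 144 under the same settings. The cause of these shifts was not tested, apart from fewer arrays when 1 is left out.

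With a replicate block for the pairing of the 4 arrays the count was 2302, with the crossed pairing, added after seeing a negative correlation, 2324 (1659 rising, 665 falling), and without doxycycline the replicate block gave 0 calls. The tests used throughout did not pair the samples, and a pairing is not excluded. Of the 2430 calls 2283 were kept under the block, and none of the 37 values of named probes for this comparison changed direction or call. Of 865 values of named probes under alternatives, 764 kept direction and call, 94 lost the call, 5 gained it and 2 reversed. Both reversals came with the scanner software's ratios: Z00029447-1 for day 3 minus day 1 (0.01) and Z00022466-1 for day 6 minus day 3 (-0.19). Slide as a random block was not run, since each of the 18 groups lies on 1 slide. Tests of gene lists were not run, since no gene names were paired with the probes.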
